A study of Mus musculus with 12 samples.

Results

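The comparison set the 2 higher doses of TCDD against the lowest dose and vehicle in the proximal ileum of the mouse, and asked which transcripts divide the libraries at that point of the dose range. TCDD is 2,3,7,8-tetrachlorodibenzo-p-dioxin, a dioxin and a strong ligand of the aryl hydrocarbon receptor (AhR). All 12 libraries of the series were used. The higher pool held the 6 libraries of 10 and 30 µg/kg TCDD, and the lower pool held the 6 libraries of sesame oil vehicle and 3 µg/kg TCDD, with 3 libraries per dose. Every animal was a male C57BL/6 mouse, 28 days old at the start and 56 days old at the end, gavaged 7 times at intervals of 4 days and sampled on day 28. The RNA came from epithelial scrapings, so all cell types of the scraped mucosa contributed to it. The study's design text calls the libraries biological replicates. A gene was called separated when its lowest CPM (counts scaled to a fixed total of gene counts per library) in one pool lay above its highest CPM in the other pool. Of 15823 genes with enough counts to test, 173 were separated. Separation describes these 12 libraries and carries no p-value.

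AhR is a transcription factor that waits in the cytoplasm until a ligand binds. It then moves to the nucleus, pairs with ARNT and attaches to DNA at dioxin response elements, whose core reads GCGTG. Its best known targets encode enzymes that oxidise and conjugate foreign compounds, together with proteins such as AHRR and TIPARP that dampen the receptor's own activity. The intestinal epithelium meets AhR ligands from food and microbes and is a known site of this response.

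The sequences before the start sites of the 4 separated genes on the AhR target list are shown because they hold the core motif of the response element. Each run gives the 250 bases before the RefSeq start site in GRCm38.p6, read 5′ to 3′ on the gene's strand. Capitals mark GCGTG or its reverse complement CACGC.

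Cyp1a1: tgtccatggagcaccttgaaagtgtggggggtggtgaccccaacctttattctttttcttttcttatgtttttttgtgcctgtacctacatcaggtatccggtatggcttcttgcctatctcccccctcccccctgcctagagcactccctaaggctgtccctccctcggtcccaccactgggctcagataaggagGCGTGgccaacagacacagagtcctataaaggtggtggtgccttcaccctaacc
Cyp1b1: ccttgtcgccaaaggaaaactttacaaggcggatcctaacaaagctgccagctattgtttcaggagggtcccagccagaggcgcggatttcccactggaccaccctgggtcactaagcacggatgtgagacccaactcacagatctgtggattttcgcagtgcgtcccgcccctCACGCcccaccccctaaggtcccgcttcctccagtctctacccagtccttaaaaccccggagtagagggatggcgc
Ahrr: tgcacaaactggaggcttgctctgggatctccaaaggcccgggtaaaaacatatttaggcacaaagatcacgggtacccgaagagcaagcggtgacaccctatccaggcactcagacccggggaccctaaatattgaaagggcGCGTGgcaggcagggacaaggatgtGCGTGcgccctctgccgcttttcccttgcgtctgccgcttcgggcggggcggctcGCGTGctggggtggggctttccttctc
Tiparp: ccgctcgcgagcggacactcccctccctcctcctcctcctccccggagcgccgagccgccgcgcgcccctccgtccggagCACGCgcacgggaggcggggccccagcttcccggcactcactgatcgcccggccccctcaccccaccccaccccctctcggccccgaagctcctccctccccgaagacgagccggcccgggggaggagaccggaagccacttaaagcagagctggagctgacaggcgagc

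The Cyp1a1 run is chr9:57697363-57697612 on the plus strand and holds 1 motif, which begins 54 bases before the start site. In Cyp1b1, chr17:79715062-79715311 on the minus strand, 1 motif begins 76 bases before it. The Ahrr run, chr13:74292332-74292581 on the minus strand, holds 3 motifs, which begin 107, 82 and 27 bases before the start site. In Tiparp, chr3:65528197-65528446 on the plus strand, 1 motif begins 170 bases before it. The gene starts of Cyp1a1 and Tiparp in GENCODE, given below, lie upstream of the RefSeq starts used here. Of all 27025 genes in the RefSeq promoter table, 32.5% had GCGTG on either strand within the 300 bases from 250 before to 50 after the start. The table held 74 of the 119 genes separated upward, and 35 of these (47.3%) had the motif, against 49.9% of the genes tested that had an entry. Only 62.2% of the genes separated upward and 68.9% of all genes tested had one, so a comparison of their shares is void. A match to 5 letters is a description of the sequence, and no statement about binding follows from it.

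Total gene counts per library ran from 14509281 to 22180274 in the lower pool and from 11695887 to 19882816 in the higher pool. A count of 3 equalled 0.135 to 0.257 CPM, depending on the library, and these limits cover counting error only. Some marker genes followed single doses across the 2 pools. Markers of pancreatic acinar cells summed to 6.09 to 7.30 CPM in vehicle and to at most 2.04 CPM at any dose of TCDD. Colonocyte markers summed to 54.6 to 69.6 CPM at 10 µg/kg and to at most 2.99 CPM elsewhere, and Fabp6, Slc10a2 and Fgf15 were high at 3 µg/kg, as given below. Most of the colonocyte sum at 10 µg/kg was 1 gene, Car1, at 45.4 to 62.5 CPM. The enterocyte marker sum was 32927 to 40024 CPM in the lower pool and 33141 to 39010 CPM in the higher pool. In the 30 µg/kg libraries, 25.0 to 25.4% of reads matched no gene, against 28.0 to 30.1% in the other 9. The median log2 level of 302 protein-coding genes with under 1000 nt of exon, relative to each gene's mean over libraries, was 0.36 to 0.39 at 30 µg/kg and at most 0.09 elsewhere. The sources used here do not say whether RNA of several animals was pooled or give dates, so dose and any batch aligned with it cannot be told apart. A score of circadian clock genes was positive in 3 libraries and negative in 3 libraries of each pool.

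Cyp1b1, Cyp1a1, Acta1 and Ahrr divided the pools most widely, all of them higher at 10 and 30 µg/kg. Of the 173 separated genes, which were 1.09% of genes tested, 119 (0.752%) were higher at the higher doses and 54 (0.341%) were lower. Protein-coding genes made up 102 of the 119 and 48 of the 54. The median log2 difference between pools was 0.65 for the genes separated upward, a 1.56-fold difference, and -0.44 for those separated downward, a 1.36-fold difference. The gap, the lowest CPM of the higher-lying pool over the highest CPM of the other, exceeded 1.5 in 13 genes upward and 4 downward. It exceeded 1.1 in 46 and 15 genes, so most separations were narrow. Just inside the limit lay Msantd2, Tmc4 and Glrx, with gaps of 1.0001, 1.0006 and 1.001. Just outside it lay Gm15500, Gm24357 and Nid2, with gaps of 0.99994, 0.99968 and 0.99958. Most separated genes were limited by the doses that adjoin the division. In 95 of the 119 genes upward the lowest library of the higher pool was one of 10 µg/kg, and in 92 the highest library of the lower pool was one of 3 µg/kg.

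Cyp1a1 (ENSMUSG00000032315, chromosome 9, 57687928 to 57703824, plus strand) encodes a monooxygenase that oxidises aromatic hydrocarbons. It had 22.5, 26.8 and 18.4 CPM in the 3 vehicle libraries and 129, 73.5 and 23.6 CPM at 3 µg/kg. The level was 1349, 1024 and 905 CPM at 10 µg/kg and 3041, 3128 and 2656 CPM at 30 µg/kg. The lowest library of the higher pool thus lay 7.01 times above the highest of the lower pool, which was replicate 1 of 3 µg/kg. The pooled log2 difference was 5.41 (SE 0.37), or 42.4-fold. EdgeR's quasi-likelihood test, adjusted over all genes tested by the Benjamini-Hochberg (BH) method, gave it an adjusted p of 8.11e-06. One library of 3 µg/kg lay among the vehicle values and the other 2 lay above them.

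Cyp1b1 (ENSMUSG00000024087, chromosome 17, 79701537 to 79715061, minus strand), a related monooxygenase, had the widest gap of all genes, 8.32. Its level was 1.34, 2.57 and 2.54 CPM in vehicle, 2.89, 5.55 and 3.93 CPM at 3 µg/kg, 53.0, 46.2 and 47.7 CPM at 10 µg/kg and 112, 89.4 and 104 CPM at 30 µg/kg. The 4 dose groups followed each other without overlap. The pooled log2 difference was 4.55 (SE 0.15, edgeR quasi-likelihood, BH adjusted p 7.59e-09).

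Feedback regulators of AhR rose with the oxidising enzymes. Ahrr (ENSMUSG00000021575, chromosome 13, 74211118 to 74292331, minus strand), the AhR repressor, had 2.46, 4.15 and 3.92 CPM in vehicle and 3.31, 5.11 and 4.31 CPM at 3 µg/kg. It had 22.1, 29.8 and 31.6 CPM at 10 µg/kg and 57.2, 40.8 and 57.1 CPM at 30 µg/kg, a pooled log2 difference of 3.28 (SE 0.15, edgeR quasi-likelihood, BH adjusted p 1.63e-07). Vehicle and 3 µg/kg overlapped, while 10 and 30 µg/kg did not. Tiparp (ENSMUSG00000034640, chromosome 3, 65528410 to 65555518, plus strand) encodes an ADP-ribosyltransferase that limits AhR activity, and it has an antisense neighbour. Its level was 36.3, 37.3 and 40.1 CPM in vehicle, 54.7, 43.2 and 43.7 CPM at 3 µg/kg, 62.1, 64.2 and 59.0 CPM at 10 µg/kg and 99.4, 106 and 94.3 CPM at 30 µg/kg. The pooled log2 difference of Tiparp was 0.88 (SE 0.10, edgeR quasi-likelihood, BH adjusted p 0.000437). Its gap was narrow, 1.08, and it closed when CPM was computed on TMM library sizes. Without the 30 µg/kg libraries Tiparp was no longer called (adjusted p 0.275).

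**Figure D1:**
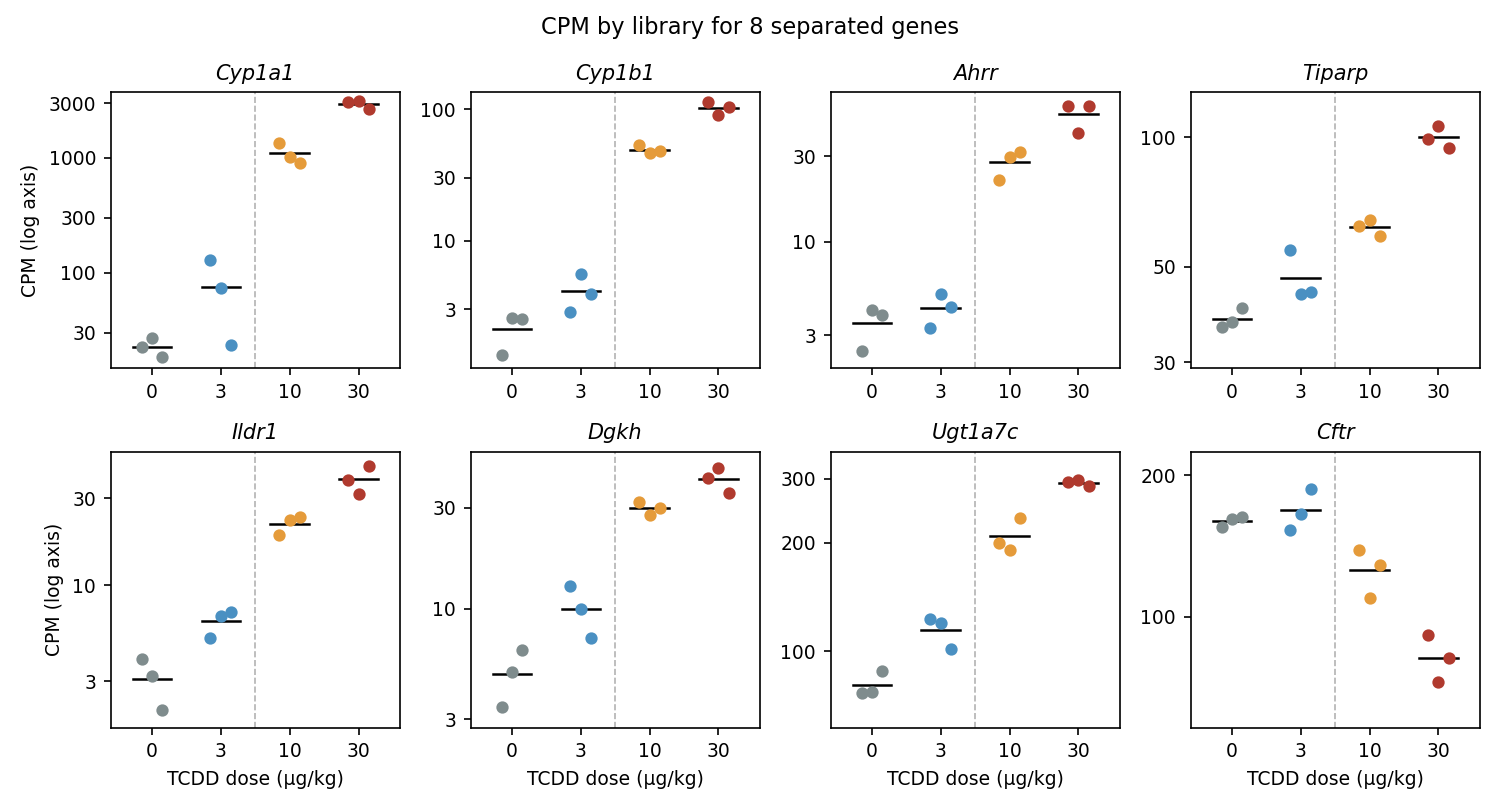
CPM on a log axis (vertical) of 8 separated genes against TCDD dose in µg/kg (horizontal); each point is 1 library, the bars are means of 3 libraries, and the dashed line divides the pools. Cyp1a1 has its lowest higher-dose library 7.01 times above its highest lower-dose library, and Cftr is the 1 gene shown that lies lower at 10 and 30 µg/kg.

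Across the AhR target list, 6 of the 9 genes tested were called higher in the pooled contrast (adjusted p under 0.05 and a difference of at least 1.5-fold) and none lower. For comparison, 1.36% of all genes tested were called higher and 0.329% lower, 1.69% in all. The median log2 difference of the list was 0.88, against -0.02 over all genes tested. Ugt1a6a, a glucuronosyltransferase, was called with a log2 difference of 0.86 (SE 0.16, edgeR adjusted p 0.0122), but its pools overlapped at 6.25, 7.84 and 10.2 CPM (lowest, median and highest) against 9.48, 14.8 and 19.8 CPM. Cyp1a2, a further oxidising enzyme, was also called, its value rested on the 3 µg/kg libraries, and the call was lost in 15 of 25 alternatives without a change of sign. It had 1.12, 2.25 and 0.763 CPM in vehicle, 0 counts in all 3 libraries of 3 µg/kg, 0.219, 0.292 and 0.445 CPM at 10 µg/kg and 1.36, 1.71 and 1.84 CPM at 30 µg/kg. Without the 3 µg/kg libraries the log2 difference of Cyp1a2 was -0.95 (edgeR adjusted p 0.185).

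The remaining listed targets were not called. Nqo1, a quinone reductase, had 14.6, 18.7 and 20.5 CPM in the lower pool and 17.6, 24.2 and 28.7 CPM in the higher pool (lowest, median and highest), a log2 difference of 0.38 (SE 0.12, edgeR adjusted p 0.0992). For Xdh, which encodes xanthine dehydrogenase, the difference was 0.27 (SE 0.14, edgeR adjusted p 0.336). Cyp2s1 differed by 0.43 (SE 0.11, edgeR adjusted p 0.0602), with 106 to 115 CPM at 30 µg/kg and 56.1 to 88.0 CPM in the other doses. Aldh3a1 had too few counts to test. Genes of the receptor complex itself were not called in any of 6 cases, at a list median of 0.09. By edgeR, 4 of the 6 had an unadjusted p under 0.05, against 18.1% of all genes tested. Their log2 differences ran from -0.88 for Arnt2 (edgeR adjusted p 0.157) to 0.43 for Ahr (edgeR adjusted p 0.0643). Arnt differed by -0.03 (edgeR adjusted p 0.832).

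Outside the AhR list, the widest separations upward were those of Acta1, Ildr1 and Dgkh. Ildr1 (ENSMUSG00000022900, chromosome 16, 36693978 to 36726804), which encodes a protein of tricellular junctions, had 3.97, 3.20 and 2.08 CPM in vehicle and 5.17, 6.80 and 7.11 CPM at 3 µg/kg. Its level was 18.8, 22.7 and 23.5 CPM at 10 µg/kg and 37.7, 31.5 and 44.8 CPM at 30 µg/kg, so that the 4 doses stood in order without overlap. The pooled log2 difference was 2.69 (SE 0.13) and the gap was 2.64. Dgkh (ENSMUSG00000034731, chromosome 14, 78558750 to 78732776), a diacylglycerol kinase with 2 antisense neighbours, had 3.41, 6.80 and 12.8 CPM in the lower pool and 27.8, 33.7 and 46.2 CPM in the higher pool (lowest, median and highest). That made a log2 difference of 2.29 (SE 0.18), and its dose groups were likewise in rising order.

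Acta1 (ENSMUSG00000031972, chromosome 8, 123891769 to 123894751) encodes the actin of skeletal muscle. It had 5.20, 2.25 and 1.93 CPM in vehicle, 4.89, 4.99 and 3.62 CPM at 3 µg/kg, 26.1, 26.0 and 42.9 CPM at 10 µg/kg and 119.7, 189.9 and 78.4 CPM at 30 µg/kg. The pooled log2 difference was 4.09 (SE 0.29), or 17.1-fold. The family of actin genes is highly alike in sequence, and reads with more than 1 location were set aside, so the level of a single actin is uncertain. The other skeletal muscle markers of the list had few counts. Myh4 had 0 counts in every library, and Ckm, Tnnt3, Tnni2 and Actn3 had at most 9 counts in any. Mylpf, at 4 to 14 counts per library, had a log2 difference of -0.15 (edgeR adjusted p 0.853). The smooth muscle marker sum was 12.5 to 178 CPM in the lower pool and 20.6 to 109 CPM in the higher pool.

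Among genes with a mean of at least 50 counts, the remaining 9 of the 15 widest gaps upward lay between 1.41 and 1.72. Cuedc1 rose from 3.24, 4.26 and 5.24 CPM in the lower pool to 9.03, 14.4 and 25.8 CPM in the higher pool (lowest, median and highest in each case), a log2 difference of 1.76 (SE 0.12). For Pmm1, a phosphomannomutase, the corresponding values were 3.34, 4.46 and 4.93 CPM and 8.46, 11.1 and 16.8 CPM, a difference of 1.41 (SE 0.12). Gramd1c had 45.2, 59.9 and 77.1 CPM and 117, 125 and 151 CPM, a difference of 1.07 (SE 0.08). In Pmm1 the 30 µg/kg libraries lay above those of 10 µg/kg, whereas in Gramd1c these doses overlapped. Klk1, tissue kallikrein, had 10.6, 14.0 and 14.96 CPM against 21.4, 23.2 and 26.4 CPM and a difference of 0.78 (SE 0.09). Hsd11b2, which inactivates glucocorticoids, had 2.68, 3.48 and 4.68 CPM against 6.63, 7.20 and 9.04 CPM and a difference of 1.06 (SE 0.13). Its 3 libraries of 10 µg/kg lay above the 3 of 30 µg/kg, the reverse of the direction in most genes separated upward. The log2 difference of 2010007H06Rik, an antisense RNA gene that overlaps Colca2 on the opposite strand, was 1.34 (SE 0.13), and its 2 highest libraries of the lower pool were of 3 µg/kg.

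Genes of the Ugt1a locus, on the plus strand of chromosome 1 between 88055388 and 88220002, were often separated, though not throughout the locus. UGT1A enzymes attach glucuronic acid to drugs, bilirubin and hormones, and their genes share their last exons. Of 17 genes and pseudogenes listed there, 16 were tested, 11 were called higher in the pooled contrast, 9 were separated upward and 7 were tested but not separated. Ugt1a7c was the most abundant of those called, with 76.6, 76.8 and 87.9 CPM in vehicle, 123, 119 and 102 CPM at 3 µg/kg, 200.01, 191 and 233 CPM at 10 µg/kg and 294, 298 and 286 CPM at 30 µg/kg. Its 4 dose groups did not overlap, and the pooled log2 difference was 1.35 (SE 0.09). The differences were 1.29 (SE 0.25) for Ugt1a5, 1.30 (SE 0.18) for Ugt1a6b, which was no longer separated on TMM library sizes, and 1.35 (SE 0.15) for the pseudogene Gm15374. Ugt1a1, the bilirubin-conjugating member, was not called, with a median of 119 CPM in the lower pool, 92.3 CPM in the higher pool and a log2 difference of -0.28 (edgeR adjusted p 0.209). Because the genes overlap and share exons, the counting could divide their reads, and the value of a single member is uncertain. Pairs of separated genes within 100 kb of each other, all higher, also occurred at Exoc3 and Ahrr (2386 bp apart), Vezf1 and Cuedc1 (13329 bp), and Cyp1a1 and Clk3 (46800 bp).

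Separations downward were smaller in the median than those upward. Among the genes with a mean of at least 50 counts, the widest gaps described here lay between 1.07 and 1.18. Cftr (ENSMUSG00000041301, chromosome 6, 18170687 to 18322768), the chloride channel of crypt and villus epithelium, had 155, 162 and 163 CPM in vehicle and 153, 165 and 187 CPM at 3 µg/kg. It had 139, 109 and 129 CPM at 10 µg/kg and 91.3, 72.7 and 81.8 CPM at 30 µg/kg, a pooled log2 difference of -0.70 (SE 0.07). Its 30 µg/kg libraries lay below all of 10 µg/kg, and vehicle and 3 µg/kg overlapped. Slc5a9, a sodium-coupled sugar transporter, had 56.6, 63.3 and 73.7 CPM in the lower pool and 37.1, 45.1 and 50.1 CPM in the higher pool (lowest, median and highest), a difference of -0.57 (SE 0.08).

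Both calcium-independent isoforms of protein kinase C that were separated were lower at the higher doses. Prkce had 43.0, 45.0 and 50.1 CPM in the lower pool and 31.0, 34.2 and 37.7 CPM in the higher pool, a log2 difference of -0.44 (SE 0.08), and Prkcq had 4.18, 4.42 and 4.68 CPM against 3.42, 3.72 and 3.90 CPM, a difference of -0.27 (SE 0.11). Each has an antisense neighbour. Malrd1 and Psd3 had log2 differences of -0.52 (SE 0.11) and -0.54 (SE 0.08). For Scarf1, a scavenger receptor, Mfsd4b2 and AI427809 they were -0.57 (SE 0.13), -0.47 (SE 0.07) and -0.55 (SE 0.13). Of the downward genes described, Cftr was called, and the others were under 1.5-fold and not called. Prkcq also missed the limit on the adjusted p (edgeR adjusted p 0.22).

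**Figure D2:**
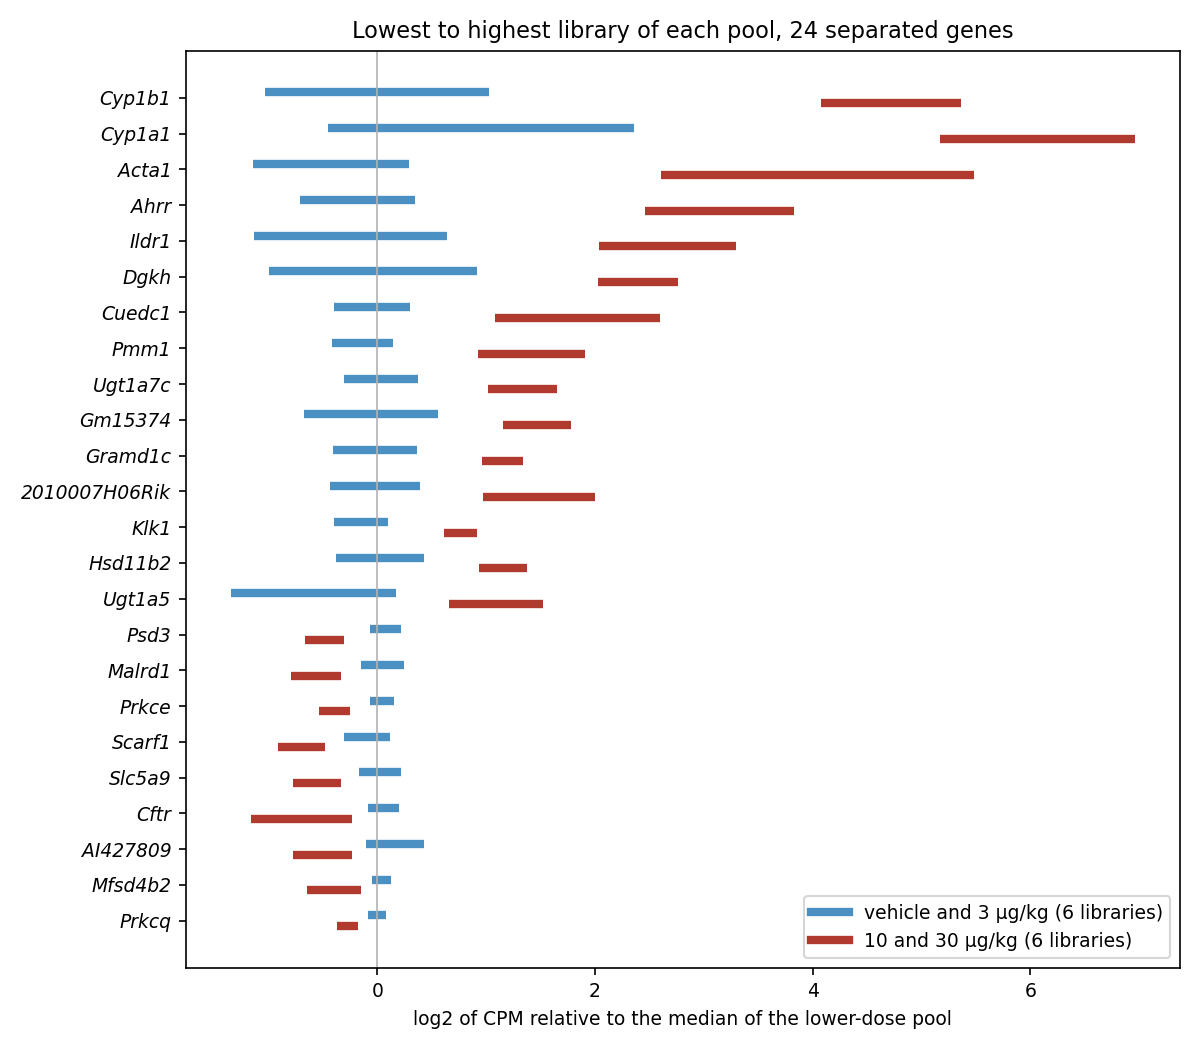
Range from the lowest to the highest library of each pool (6 libraries each) for 15 genes separated upward and 9 separated downward with wide gaps, as log2 of CPM relative to the median of the lower-dose pool. The 2 ranges of a gene do not overlap by construction; the space between them is widest for Cyp1b1 (8.32-fold) and narrowest for Prkcq (1.07-fold).

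In the pooled contrast, 61 of the 119 genes separated upward and 14 of the 54 separated downward were called. Since both measures use the same 12 libraries and the same division, nothing is read from that count. Conversely, 154 genes were called higher and 38 lower with overlapping pools. With the 2 pools in place of the 4 doses as the groups of the model, 62 genes were called instead of 267, and without the 30 µg/kg libraries 50 were called. Of the 119, 46 and 21 remained called in these fits, and of the 54, 7 and 0.

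The dose steps inside each pool use the same libraries whose lowest and highest values set the division, and the rule favours genes with little spread within a pool. The counts of separated genes for these steps are therefore descriptions, with the values over all genes given for scale. Within the higher pool, genes separated upward lay mostly higher at 30 than at 10 µg/kg. The log2 change from 10 to 30 µg/kg was positive in 107 of the 119 (89.9%), against 51.5% of all genes tested, and its median was 0.28. By the same edgeR test, 14 of the 119 (11.8%) were called higher at 30 µg/kg and 0 lower, while 2.17% of all genes tested were called higher and 0.607% lower, 2.77% in all. With the trend of each library over exon length and GC removed, 94 were positive and 10 were called, against 1.25% of all genes tested. In the fits that left out 1 library, between 8 and 16 were called, and the lowest count came without replicate 1 or 2 of 10 µg/kg or replicate 3 of 30 µg/kg. Without replicate 2 of 30 µg/kg 9 were called.

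The called genes included Cyp1b1, with a log2 change of 1.1018 (SE 0.17) from 10 to 30 µg/kg (edgeR adjusted p 0.00382), and Cuedc1, with 1.21 (SE 0.16, edgeR adjusted p 0.00137). Ahrr rose by 0.94 (SE 0.18, edgeR adjusted p 0.013) and Tiparp by 0.74 (SE 0.14, edgeR adjusted p 0.0105). Acta1 had a change of 2.08 (SE 0.35), Ildr1 of 0.85 (SE 0.17), Pmm1 of 0.70 (SE 0.16) and 2010007H06Rik of 0.83 (SE 0.18), with edgeR adjusted p-values of 0.00566, 0.0141, 0.0297 and 0.0229. The largest induction of the pooled contrast among AhR targets, that of Cyp1a1, was not called for this step, at 1.47 (SE 0.44, edgeR adjusted p 0.0795). The change of Ugt1a7c, 0.54 (SE 0.12), had an edgeR adjusted p of 0.0272 but was under 1.5-fold.

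Of the 54 genes separated downward, 1 was called lower at 30 than at 10 µg/kg (1.85%) and 0 higher. That gene was Zyg11a, named because it was the only one, with a log2 change of -1.01 (edgeR adjusted p 0.00741). The change was positive in 11 of the 54 (20.4%), with a median of -0.09. Cftr fell by 0.57 on the log2 scale between these doses (edgeR adjusted p 0.00961), just under the 1.5-fold limit.

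Within the lower pool, no separated gene passed the test for 3 µg/kg against vehicle, though a few did in alternative fits. EdgeR's quasi-likelihood test called 0 of the 173, while 0.228% of all genes tested were called, 0.0569% higher and 0.171% lower. At an unadjusted p under 0.05 there were 18 genes of the 119 (15.1%) and 2 of the 54 (3.7%), against 11.4% of all genes tested. DESeq2 called 5 of the 119 higher, against 0.209% of all genes tested, and limma-voom called 0, against 0.0506%. Without a filter edgeR called 4, against 0.0882% of all genes tested. With the clock score as a covariate it called 4, against 0.12%. Scaling by library totals alone gave 2, against 0.0569%. Leaving out replicate 1 or 3 of 3 µg/kg gave 1 each, against 0.639% and 0.0493%. Of the 119, 82 had a positive log2 change (68.9%, against 50.3% of all genes tested), and of the 54, 12 did (22.2%). The number of positive changes among the 119 was 65 without replicate 1 of 3 µg/kg and 104 with the length and GC trend removed. The log2 changes at 3 µg/kg included 1.74 (SE 0.46) for Cyp1a1 (edgeR adjusted p 0.208), 0.99 (SE 0.20) for Ildr1 (edgeR adjusted p 0.0845), 0.98 (SE 0.26) for Dgkh (edgeR adjusted p 0.212), 0.98 (SE 0.27) for Ugt1a6b (edgeR adjusted p 0.239) and 0.86 (SE 0.23) for Cyp1b1 (edgeR adjusted p 0.221). For Gramd1c the change was 0.55 (SE 0.12, edgeR adjusted p 0.11), and its 3 libraries of 3 µg/kg all lay above the 3 vehicle libraries.

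Non-overlap between neighbouring doses gave a like description. All 3 libraries of 30 µg/kg lay above all 3 of 10 µg/kg in 55 of the 119 genes (46.2%), against 12.0% of all genes tested. All 3 libraries of 3 µg/kg lay above all 3 of vehicle in 23 (19.3%), against 8.92%. Among the 54 genes separated downward, 17 (31.5%) had all libraries of 30 µg/kg below those of 10 µg/kg, against 15.8% of all genes, and 5 (9.26%) had those of 3 µg/kg below vehicle, against 5.21%. The 4 dose groups stood in rising order without overlap in 9 genes, namely Cyp1b1, Dgkh, Fbxw9, Ildr1, Ndufb3, Perp, Tiparp, Tmem86b and Ugt1a7c. A full falling order was found in Dcaf7 and Ppm1l. A gene in full order is separated by definition, so no other gene could have it, and those of the 11 outside the naming rule were listed after their values were seen. Dose means rose or fell at every step in 82 of the 119 and 26 of the 54. Separation itself fixes the step from 3 to 10 µg/kg, and the share over all genes was not computed, so nothing is read from these counts.

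**Figure D3:**
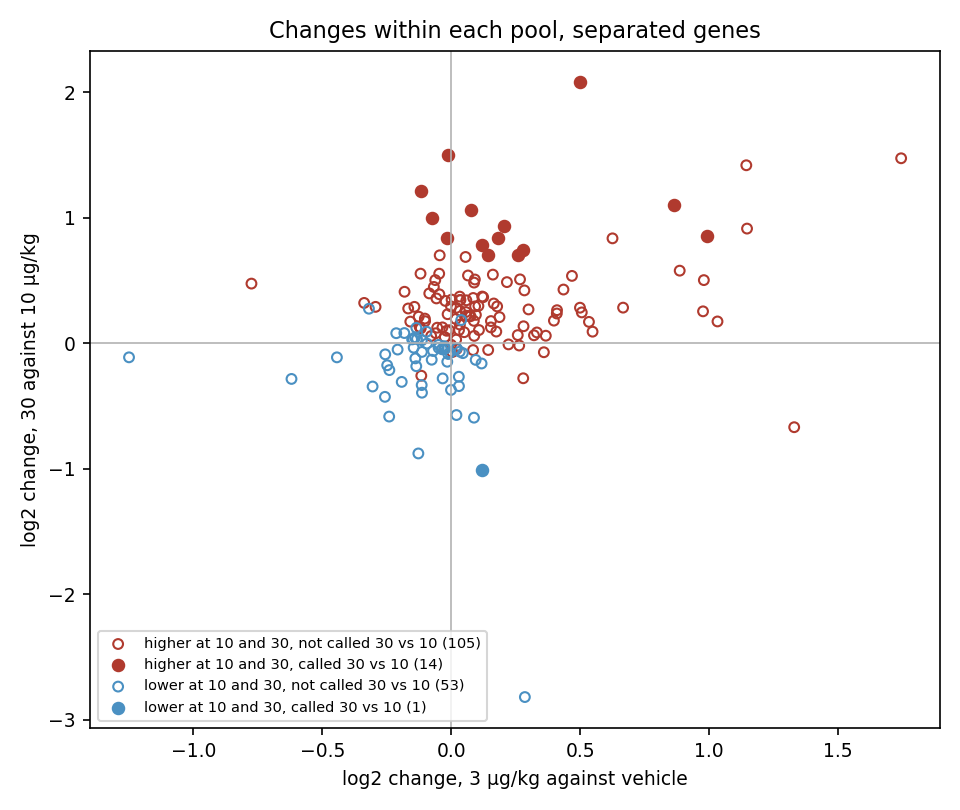
Log2 change of each of the 173 separated genes from vehicle to 3 µg/kg (horizontal) and from 10 to 30 µg/kg (vertical); red marks genes higher and blue genes lower at 10 and 30 µg/kg, and filled points were called for 30 against 10 µg/kg by edgeR's quasi-likelihood test. Of the red points, 107 of 119 lie above 0 on the vertical axis, and 0 of the 173 genes were called on the horizontal axis.

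Separated genes also differed in exon length by direction. The median was 3146 nt for those upward and 5939 nt for those downward, against 3991 nt for all genes tested. Genes under 1000 nt made up 12.6% of those upward (15 of 119) and 3.7% of those downward (2 of 54), against 7.02% of all with a length. The pooled median log2 difference of 302 protein-coding genes under 1000 nt was 0.31, and it was -0.06 for 2439 such genes of 8000 nt and over. From 10 to 30 µg/kg these medians were 0.44 and -0.05, and from vehicle to 3 µg/kg they were 0.03 and 0.02. The shift moves with the 30 µg/kg libraries. Its part in single short genes was not tested beyond the fit with the trend over length and GC removed. With the trend over length and GC taken out of each library, 166 genes were separated, 100 of them among the 173. Of the 24 genes drawn with wide gaps, those that were then not separated were Prkcq, Malrd1 and AI427809, all of them lower.

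The other xenobiotic lists held 1 or 2 called genes each, beside 1.69% of all genes tested. Of 11 NRF2 targets tested, which answer oxidative stress, Gsta4 was called higher and separated, with 8.39, 11.9 and 14.1 CPM against 14.8, 20.3 and 30.5 CPM (lowest, median and highest) and a log2 difference of 0.89 (SE 0.15). The list median was 0.01. Among 14 conjugation enzymes, 2 were called higher and separated, both of the Ugt1a locus, and the list median was 0.01. Of 15 cytochromes P450 outside the CYP1 family, Cyp2j6 was called higher and Cyp2d26 lower. Cyp2j6 had a difference of 0.63 (SE 0.15, edgeR adjusted p 0.0398) and Cyp2d26 of -0.65 (SE 0.12, edgeR adjusted p 0.0115), both with overlapping pools. The call of Cyp2j6 was lost in 10 of 26 alternatives. Cyp3a13 was separated at 722, 823 and 988 CPM against 1039, 1107 and 1249 CPM, with a difference of 0.42 (SE 0.10) that was under 1.5-fold, and it was not separated on TMM library sizes.

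Of the cell type lists, that of Paneth cells held the most calls, all with overlapping pools. In bulk RNA, a change in the number of cells of a type and a change in RNA per cell, fewer cells or less RNA included, cannot be told apart. Of 9 Paneth cell genes tested, 4 were called higher and 0 separated, at a list median of 0.76. Over all genes tested, 1.36% were called higher and 0.752% were separated upward. Ang4, a secreted ribonuclease, had 34.3, 45.1 and 27.4 CPM in vehicle, 35.0, 86.6 and 96.5 CPM at 3 µg/kg, 96.4, 68.4 and 98.1 CPM at 10 µg/kg and 157, 188 and 198 CPM at 30 µg/kg, a difference of 1.31 (SE 0.19, edgeR adjusted p 0.00235). Lyz1, lysozyme, differed by 0.91 (SE 0.20, edgeR adjusted p 0.027). The alpha-defensin genes Defa22 and Defa30, members of a family whose copies share reads and are uncertain, differed by 1.01 (SE 0.21) and 0.91 (SE 0.23). The call was lost in 15 of 26 alternatives for Defa30 and in 8 of 26 for Lyz1. All 4 calls, that of Ang4 included, were lost with the 2 pools as groups and without the 30 µg/kg libraries. Ang4, Defa22 and Defa30 have 709, 419 and 398 nt of exon. With the trend over length and GC removed, Defa30 alone of the 4 lost its call. Defa22 was high at 30 µg/kg alone, with 137, 224 and 260.2 CPM there and 23.2 to 63.2 CPM in the other doses. Without the 30 µg/kg libraries its log2 difference was -0.16 (edgeR adjusted p 0.902). The Paneth marker sum was 701 to 2058 CPM in the lower pool and 1207 to 3500 CPM in the higher pool.

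Of 8 goblet cell genes, 0 were called by edgeR and 6 had an unadjusted p under 0.05, at a list median of 0.45. Agr2, Tff3, Spink4, Zg16 and Spdef passed the adjusted p (edgeR 0.00397, 0.0108, 0.015, 0.0239 and 0.0344). They missed the call because their differences were under 1.5-fold. Muc2, Clca1 and Fcgbp did not pass the adjusted p, which 563 of all 15823 genes tested passed. Over all genes tested, 18.1% had an unadjusted p under 0.05 in the pooled contrast. Spdef, a transcription factor of goblet and Paneth cells, was separated at 11.2, 12.0 and 14.3 CPM against 14.6, 16.7 and 19.5 CPM, with a difference of 0.43 (SE 0.10, lowest, median and highest), though not on TMM library sizes. In the enteroendocrine list, 1 of 11 genes was called, against 1.69% of all genes tested. By edgeR, 7 had an unadjusted p under 0.05, and the list median was 0.39. The called gene was the hormone gene Cck, with 5.49, 6.51 and 7.98 CPM against 7.66, 11.5 and 15.1 CPM. Its difference was 0.74 (SE 0.12, edgeR adjusted p 0.00417). Chga, Chgb, Gcg and Sct also passed the adjusted p (edgeR 0.0318, 0.00276, 0.0406 and 0.00217) but were under 1.5-fold. The other members, such as Pyy, Nts, Gip and Sst, did not pass it. The T cell list had 0 of 8 genes called and 4 with an unadjusted p under 0.05. Its member Cd3g was separated at 8.84, 10.3 and 11.0 CPM against 11.9, 14.4 and 17.8 CPM. The difference of Cd3g was 0.51 (SE 0.09, edgeR adjusted p 0.00692), under 1.5-fold. The T cell marker sum overlapped at 230 to 356 CPM and 294 to 386 CPM. B and plasma cell genes had a list median of -1.13, with 0 of 6 called by edgeR and 5 at an unadjusted p under 0.05. The enterocyte list had 0 of 10 called and a median of 0.02. Proliferation genes had 0 of 12 called, 5 at an unadjusted p under 0.05 and a median of 0.32.

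Several genes called in the pooled contrast were set by a single dose. Fabp6, the ileal bile acid binding protein, had 0.0559, 0.0902 and 0.0508 CPM in vehicle and 35.0, 34.7 and 24.3 CPM at 3 µg/kg. At 10 µg/kg it had 0.146, 0.146 and 0.318 CPM and at 30 µg/kg 0, 0.171 and 0.112 CPM. The lower call of Fabp6, -3.48 (SE 0.67, edgeR adjusted p 0.0122), thus compares the higher doses with the 3 µg/kg libraries, since vehicle was as low as they were. Slc10a2, the bile acid transporter of the brush border, was likewise highest at 3 µg/kg, with 0.447, 2.16 and 2.59 CPM, 15.02, 9.73 and 5.80 CPM, 2.19, 1.46 and 1.02 CPM and 0.855, 0.941 and 1.00 CPM in vehicle, 3, 10 and 30 µg/kg, and its call was lost in 11 of 25 alternatives. Fgf15, the hormone of bile acid feedback, had 1.93, 2.00 and 1.498 CPM at 3 µg/kg, at most 0.135 CPM in vehicle and 0 counts in all 6 libraries of the higher pool. These 3 genes are known for their place in the distal ileum. They were the only ones called among 6 genes tested of ileal bile acid handling, and none was separated. Whether the 3 µg/kg scrapings reached a different stretch of ileum was not tested, and dose and position along the gut cannot be told apart here.

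Of the 5 colonocyte markers, Aqp8 and Car1 went with 10 µg/kg. Slc37a2 had 21 to 51 counts per library and was not called, at a log2 difference of 0.81 (edgeR adjusted p 0.0793). Hoxb13 and Prdx6b, with at most 16 and 1 counts in any library, had too few to test. Aqp8, a water channel, had 5.68, 4.74 and 5.02 CPM at 10 µg/kg and at most 0.836 CPM in any other library. Its pooled difference was 4.57 (SE 0.56, edgeR adjusted p 0.000724), and its change from 10 to 30 µg/kg was -3.46 (SE 0.51, edgeR adjusted p 0.00223). Car1, a carbonic anhydrase named after its values were seen, had 56.4, 62.5 and 45.4 CPM at 10 µg/kg and 0 counts in the other 9 libraries. EdgeR called 0 of 14 brush border hydrolase genes, of which 5 had an unadjusted p under 0.05, and 0 of 13 genes of fat absorption, of which 1 did. Of 11 cholesterol synthesis genes it called 0, with 4 at an unadjusted p under 0.05 and a list median of 0.31.

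**Figure D4:**
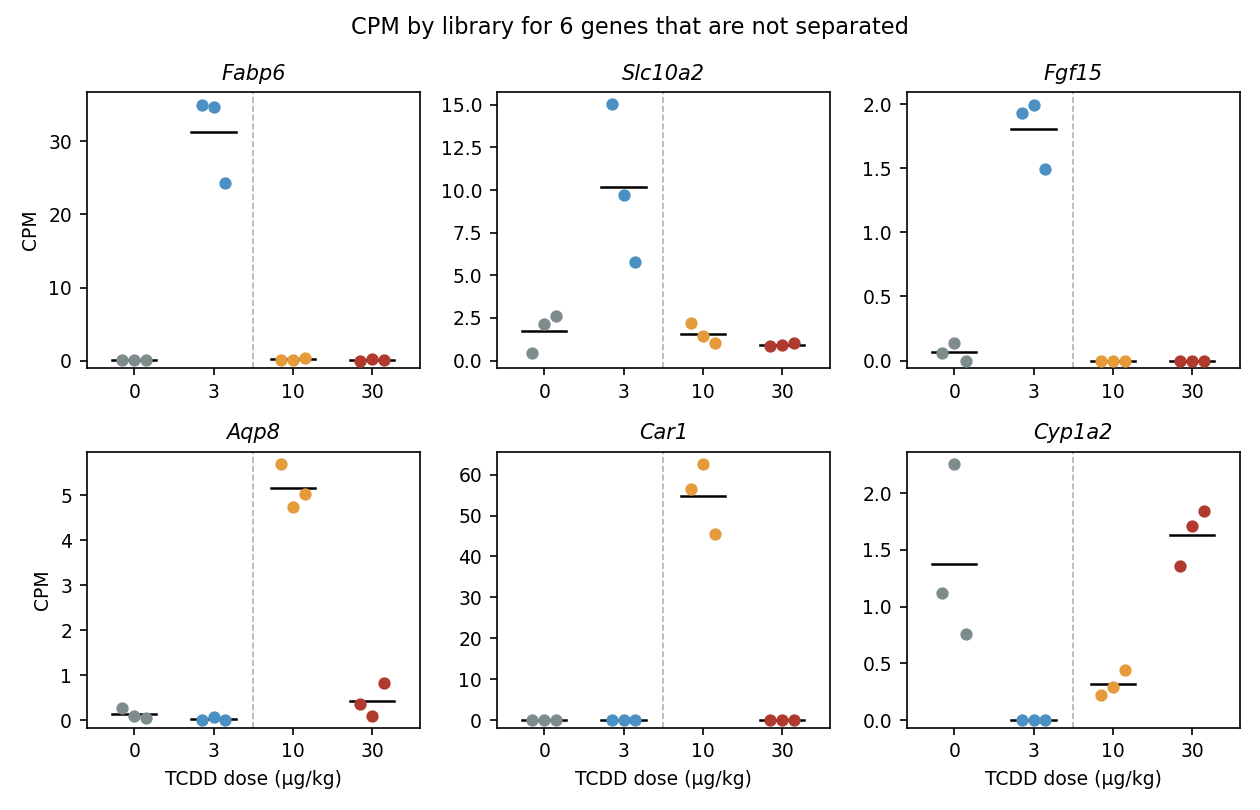
CPM (vertical) against TCDD dose in µg/kg (horizontal) for 6 genes whose pools overlap; each point is 1 library, bars are means of 3 libraries and the dashed line divides the pools. Fabp6, Slc10a2 and Fgf15 are high at 3 µg/kg, Aqp8 and Car1 at 10 µg/kg, and Cyp1a2 has 0 counts at 3 µg/kg.

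Cobalamin absorption genes, which the study examined, showed no call and no separation between the pools. Of 6 genes tested, edgeR called 0 and 1 had an unadjusted p under 0.05. Cubn (ENSMUSG00000026726, chromosome 2, 13276338 to 13491813), the cubilin receptor that takes up the intrinsic factor complex, had 1099, 1414 and 1146 CPM in vehicle, 1573, 495 and 424 CPM at 3 µg/kg, 715, 222 and 192 CPM at 10 µg/kg and 379, 328 and 161 CPM at 30 µg/kg. Its pooled log2 difference was -1.65 (SE 0.42, edgeR adjusted p 0.051), and 1 library of 3 µg/kg and 1 of 10 µg/kg lay apart from the others of their dose. The adjusted p of Cubn lay between 0.00022 and 0.555 over the alternatives, and 10 of 26 brought it past the threshold. The paper reports a dose-dependent repression of Cubn in the proximal ileum. The pooled contrast sets 3 µg/kg with vehicle, so its missing call is no test of that report. Mean levels were 1220, 831, 377 and 289 CPM in vehicle, 3, 10 and 30 µg/kg. Every library of 10 and 30 µg/kg lay below every vehicle library. Differences were -0.06 (SE 0.09) for Tcn2, -0.12 (SE 0.07) for Lmbrd1, 0.21 (SE 0.13) for Abcc1, 0.18 (SE 0.28) for Cd320 and 0.00 (SE 0.11) for Amn. Lrp2 had too few counts to test. Slc13a1, a sulphate transporter of the enterocyte, was called lower at -1.62 (SE 0.38, edgeR adjusted p 0.0365), with overlapping pools of 32.1, 52.3 and 93.5 CPM and 7.81, 15.5 and 45.6 CPM, and the call was lost in 10 of 26 alternatives.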

How the data were processed

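RNA of proximal ileal epithelium was sequenced in 12 libraries from total RNA, made with the Ovation Mouse kit and an additional DNase step. Per the labels and deposited files, each library's file lists unnormalised counts of reads for every Ensembl gene. The submitters' processing notes name FastQC 0.11.3, Trimmomatic 0.33, TopHat2 2.1.0, SAMtools 1.2.0, HTSeq 0.6.1 and DESeq, with build GRCm38. The annotation release and strand setting are not given in the sources used here, so genes with an antisense neighbour cannot be told apart from it. Entries for reads without a gene (25.0 to 30.1% of all), with several genes or with more than 1 location (31.4 to 38.8%) were left out of totals and tests. Symbols, positions and lengths came from GENCODE M21, which matched 45229 of 46078 identifiers. Sequences came from RefSeq (GRCm38.p6).

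Low counts were removed with filterByExpr (edgeR 4.0.16, R 4.3.3), libraries were scaled with TMM factors, and a quasi-likelihood model of 4 dose groups was fitted to all 12. The pooled contrast was the mean of 10 and 30 µg/kg minus the mean of vehicle and 3 µg/kg. Called genes had a BH adjusted p under 0.05 and a difference of at least 1.5-fold. Standard errors were derived from the F statistic. CPM used total gene counts. Replicate pairs differed by more than sampling noise (chi-square per degree of freedom 10.7 to 48.1). The tests were checked on simulated data. Named genes were the AhR and cobalamin lists, the 15 upward and 10 downward separated genes with the widest gaps and a mean count of at least 50, and up to 4 genes of each other list that were separated or called in the pooled contrast. For the contrasts inside a pool, those of them that were separated and called there were named. Of the rule's genes with overlapping pools, Cyp1a2, Cck, Ang4 and Defa22 were called higher and Aqp8 lower for 30 against 10 µg/kg. For 3 µg/kg against vehicle, Fabp6 and Fgf15 were called higher and Cyp1a2 lower. A few genes the rule takes are not reported here. Any other gene named was chosen after its values were seen. The members and lists were chosen with earlier results of these data known. Alternatives were other scalings, filters, tools (DESeq2 1.42.0, limma 3.58.1), covariates, groupings and leaving out libraries.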

Additional observations from a re-analysis of the deposited data

Results flagged for a closer look

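Within the pools of 6 libraries, 108 sets of values were examined for a library far from the rest, and 6 were found, where chance gives about 1 in 20. In the lower pool, vehicle replicate 3 stood apart for Spdef, at 14.3 CPM against 11.2 to 12.3 in the other libraries, and for Klk1, at 10.6 CPM against 13.53 to 14.96. Vehicle replicate 1 stood apart for Aqp8, at 0.28 CPM against 0 to 0.0902. Replicate 3 of 3 µg/kg stood apart for Cftr, at 187 CPM against 153 to 165. In the higher pool, replicate 1 of 10 µg/kg had 45.6 CPM of Slc13a1 against 7.81 to 21.1, and replicate 1 of 30 µg/kg had 151 CPM of Gramd1c against 117 to 128.

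Outside the gene counts, reads aligned to more than 1 place made up 37.7% on average at 30 µg/kg, above all vehicle libraries (32.5 to 34.6%). Reads matching no gene made up 29.8% on average at 3 µg/kg, just above the vehicle libraries (29.36 to 29.41%).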

How the results depend on the processing

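The labels give no replicate numbers that pair animals across doses, but each of 3 library indices occurs once in every dose. The numbers used here follow accession order and coincide with the indices, so the fit with the index as a covariate is also the fit with a replicate block, and it called 209 genes in the pooled contrast, 18 for 3 µg/kg against vehicle and 324 for 30 against 10 µg/kg. The pooled contrast called 267 genes, 62 with the 2 pools as groups, 563 by the adjusted p alone and, in an alternative chosen after seeing the data, 50 without the 30 µg/kg libraries. Leaving out 1 library gave 191 (replicate 3 of 10 µg/kg) to 274 genes, and other settings stayed within 1.5 times. For 3 µg/kg against vehicle the 36 genes, 9 higher and 27 lower, became 71 without a filter, 23 with at least 10 counts in every library and 84 with DESeq2. With the length and GC trend removed the split was 12 and 21. Leaving out 1 library gave 19 (vehicle replicate 1 or 3) to 162 (replicate 1 of 3 µg/kg), with 20 and 23 without replicates 2 and 3 of 3 µg/kg. For 30 against 10 µg/kg the 439 genes became 281 with that trend removed and 742 by the adjusted p alone. Leaving out 1 library gave 188 (replicate 2 of 10 µg/kg) to 543, with 288 without replicate 3 of 10 µg/kg and 238 without replicate 2 of 30 µg/kg. The 173 separated genes became 1341 without the 3 µg/kg and 459 without the 30 µg/kg libraries, both chosen after seeing the data, and 196 to 326 (replicate 2 of 10 µg/kg) without 1 library, since fewer libraries must be divided. Without replicate 1 of 3 µg/kg they were 262, without replicate 2 of it 282, and without replicate 1 of 10 µg/kg 289. On TMM and median-of-ratios library sizes 186 and 183 were separated, 125 and 121 of them among the 173. Under those sizes, both filters and trend removal alike, 79 of the 173 stayed separated.

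Of 33 named genes called, 14 kept the call in every alternative that gave a value: Cyp1a1, Cyp1b1, Ahrr, Ildr1, Dgkh, Acta1, Cuedc1, Pmm1, Ugt1a7c, Gm15374, Gramd1c, 2010007H06Rik, Hsd11b2 and Aqp8. For Aqp8, whose pools overlapped, no alternative left out all libraries of the dose at which it was high. Its kept call therefore cannot show whether the call holds without that dose. The sign turned in 5 genes. Amn was -0.002 with upper-quartile scaling, -0.0046 with the 2 pools, -0.0023 with the index, -0.10 with the trend removed, -0.18 without 3 µg/kg, -0.16 without 30 µg/kg and -0.0435 to 0.1218 without 1 library. Cd320 was -0.0263 and Cyp1a2 -0.95 without 3 µg/kg, Defa22 was -0.16 without 30 µg/kg, and Tcn2 was 0.0507 without replicate 1 of 3 µg/kg. Depth limits genes near a count of 3 per library.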

Other observations

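The separated genes below were picked after their values were seen, and no list or count of such genes stands behind them. CPM is given as the lowest, median and highest library of each pool, and differences are pooled log2 values with no test beyond the call. Alas1, the first and rate-limiting enzyme of haem synthesis, had 98.9, 107 and 115 CPM in the lower pool and 123, 174 and 195 CPM in the higher pool, a difference of 0.60 (SE 0.08). Cpox, a later enzyme of the same pathway, had 36.0, 41.3 and 51.5 CPM against 54.3, 63.9 and 76.8 CPM, a difference of 0.59 (SE 0.08). Mt1, a metal-binding metallothionein, had 151, 187 and 349 CPM against 361, 600.3 and 885 CPM, and Sod1, superoxide dismutase, had 124, 142 and 196 CPM against 225, 249 and 259 CPM. Alas1, Cpox, Mt1 and Sod1 were called higher in the pooled contrast.

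Creb3l1 and Ern2, which act in the secretory pathway, differed by 0.64 (SE 0.08) and 0.25 (SE 0.08), beside the value of Spdef given above. Creb3l1 was called higher, while Ern2 was not called (edgeR adjusted p 0.0967). The vitamin D receptor gene Vdr had 372, 392 and 421 CPM against 470.3, 511 and 619 CPM, a difference of 0.43 (SE 0.08). Vdr passed the adjusted p (edgeR 0.00853) but was under 1.5-fold and not called. Npc1l1, the cholesterol uptake transporter, was the most abundant of the genes singled out downward here, at 1582, 1698 and 1975 CPM against 1395, 1478 and 1531 CPM. Its difference was -0.26 (SE 0.09), and it was not called (edgeR adjusted p 0.151). Apobec2 and Asb2, known from muscle, were separated upward with Acta1, at 0.316, 0.723 and 1.81 CPM against 1.97, 5.27 and 10.5 CPM and 7.04, 9.72 and 11.2 CPM against 11.9, 14.5 and 17.8 CPM. Apobec2 and Asb2 were also called higher. The skeletal muscle markers other than Acta1, given above, were not called (Mylpf, log2 difference -0.15) or had too few counts to test.

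Among genes too scarce for the naming rule, the widest gaps downward were those of Igkv3-12, Gm37800, Igf2bp3 and Pcdh19, between 1.52 and 1.82. Igf2bp3, an RNA-binding protein of growing tissue, had 0.125, 0.519 and 0.811 CPM in the lower pool and at most 0.0729 CPM in the higher pool. The values that set its gap, 0.125 and 0.0729 CPM, both lay below the CPM of 3 counts in their libraries (0.187 and 0.219). Its gap therefore rests on very few reads. Igkv3-12 is an immunoglobulin segment and resembles other segments, so its count is uncertain.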
